A study of Mus musculus with 18 samples.

Results

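The 34 genes described here are interferon response genes, a list that runs from transcription factors (Irf1, Irf7, Irf9 and Stat2) over antiviral effectors (the Ifit, Oas and Mx genes, Rsad2, Bst2) to the chemokine Cxcl10. They were found by their symbols in the array annotation, which listed all 34 of 34 on clusters of probes that carry a single symbol, and they are among 23410 transcript clusters with a symbol. Their levels were measured in mIMCD-3 cells, an epithelial line of the mouse inner medullary collecting duct, on 18 Affymetrix Mouse Gene 1.0 ST arrays. In one experiment the groups were 1 µM AGN193109 with 0.2 µM tRA, 1 µM AGN193109 alone, and vehicle. In the other they were 25 µM DEAB with 0.01 µM tRA, 25 µM DEAB alone, and vehicle. AGN193109 blocks all retinoic acid receptors, DEAB blocks the retinaldehyde dehydrogenases that make retinoic acid, and tRA (all-trans retinoic acid) is the acid itself. Vehicle was 0.1% ethanol with 0.1% DMSO, every dish was treated for 24 h in medium with fetal calf serum lowered to 1%, and each group had 3 arrays from 3 independent experiments that share a replicate number. All cells are of a single immortalized line, no dish received tRA without an inhibitor, and the tRA dose differed between the experiments, so the effects of tRA in them are given side by side.

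Interferons are cytokines that cells release after sensing foreign nucleic acid. Their receptors activate JAK kinases and STAT proteins, type I and III interferons mainly through a complex of STATs with Irf9 that binds the interferon-stimulated response element (ISRE), and interferon gamma through a STAT dimer that binds the gamma-activated site (GAS). Many of the induced genes are also read at a lower tonic level in cells without infection, and Cxcl10 answers to NF-kB as well.

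Promoter stretches are shown here for 8 genes on which the results turn and whose windows hold the letters of an ISRE, a GAS or an NF-kB site. RefSeq windows of GRCm38.p6, which run from 250 bases before to 50 bases after a start, were matched for 25 of the 34 genes. The ISRE was searched as GAAANNGAAA, the GAS as TTCNNNGAA and the NF-kB site as GGGANNNNCC, each on both strands. In the stretches below, written on the gene's own strand, capitals mark the matches. The window of Irf1 also held an NF-kB match, which lies outside the stretch shown. Of the other genes of the list described at length, Ifit2 had a GAS and an NF-kB match but no ISRE match. Stat2 and Ddx58 had an ISRE match, Oasl2 and Irf7 had no match to any of these motifs, and Usp18 had no window.

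Cxcl10, chr5:92348940-92349119, minus strand, with an ISRE match followed by a pair of NF-kB matches: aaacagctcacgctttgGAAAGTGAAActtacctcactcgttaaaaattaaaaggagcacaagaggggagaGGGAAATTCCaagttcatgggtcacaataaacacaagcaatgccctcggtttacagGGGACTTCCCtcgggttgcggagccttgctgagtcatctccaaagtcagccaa

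Ifit1, chr19:34640759-34640888, plus strand, with 2 ISRE matches on the other strand: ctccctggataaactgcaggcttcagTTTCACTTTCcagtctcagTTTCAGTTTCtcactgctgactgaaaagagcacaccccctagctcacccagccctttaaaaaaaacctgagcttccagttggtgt

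Ifit3, chr19:34583359-34583488, plus strand, with 2 ISRE matches on the other strand: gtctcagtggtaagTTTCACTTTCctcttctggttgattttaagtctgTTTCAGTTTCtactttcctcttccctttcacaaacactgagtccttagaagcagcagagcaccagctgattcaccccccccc

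Oas3, chr5:120777660-120777759, minus strand, with an ISRE match: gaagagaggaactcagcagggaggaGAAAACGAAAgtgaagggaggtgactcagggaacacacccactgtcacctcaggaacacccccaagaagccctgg

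Rsad2, chr12:26456453-26456592, minus strand, with an ISRE and then an NF-kB match, both on the other strand: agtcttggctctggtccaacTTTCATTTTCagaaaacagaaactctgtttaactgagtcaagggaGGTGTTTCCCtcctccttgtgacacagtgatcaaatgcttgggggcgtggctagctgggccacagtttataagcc

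Bst2, chr8:71537523-71537622, minus strand, where a GAS match and 2 ISRE matches overlap each other: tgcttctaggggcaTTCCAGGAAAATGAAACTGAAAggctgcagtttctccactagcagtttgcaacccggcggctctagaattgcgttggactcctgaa

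Oasl1, chr5:114923110-114923239, plus strand, with an NF-kB match: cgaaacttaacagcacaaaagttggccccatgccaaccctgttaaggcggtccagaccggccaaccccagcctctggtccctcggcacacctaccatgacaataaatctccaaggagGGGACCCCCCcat

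Irf1, chr11:53769874-53769973, plus strand, with a GAS match: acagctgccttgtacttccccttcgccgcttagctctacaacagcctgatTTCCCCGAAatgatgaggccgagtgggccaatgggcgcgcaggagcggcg

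An ISRE match lay in the window of 11 of the 25 genes (44%: Ifit1, Ifit3, Stat2, Oas1a, Oas3, Rsad2, Ddx58, Ifih1, Cxcl10, Bst2 and Gbp3), against 3.99% of all 27025 genes with a window. In Gbp3 and Oas1a, as in Bst2, 2 ISRE matches overlap. A GAS match lay in 6 of the 25 (24%), against 9.55% of all genes, and an NF-kB match in 6 (24%), against 22.9%. The DR2 and DR5 elements, direct repeats spaced by 2 or by 5 bases that retinoic acid receptors bind, were searched on both strands and found in 0 of the 25 genes, against 0.311% and 0.115% of all genes. Matches this rare would seldom fall among 25 genes, and elements outside the windows were not searched. The 0 therefore does not show that these genes lack such elements. A match is a run of letters, not a measured binding site.

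Most of these genes were read well above the dim end of the arrays. Of the 34, 32 had a mean level above the 30th percentile of all clusters in both experiments, and the exceptions were Mx1 (log2 levels of 4.99 and 5.21) and Mx2 (6.40 and 5.90), the dynamin-like GTPases. Cxcl10, which attracts activated T cells, stood highest, with mean log2 levels of 12.33 (AGN193109 experiment) and 11.87 (DEAB experiment). Usp18, which removes ISG15 from proteins and restrains the interferon receptor, followed with 11.46 and 11.35. Levels on an array depend on the probes, so the order between genes is only approximate. Of the receptors, the interferon alpha receptor subunits Ifnar1 (10.6 and 11.6) and Ifnar2 (11.4 and 11.6) and the interferon gamma receptor subunits Ifngr1 (10.8 and 11.4) and Ifngr2 (12.3 and 12.7) were read at high log2 levels, whereas the ligand Ifnb1 stood at 5.5 and 5.8. The epithelial genes Krt8 (13.6 and 14.0) and Epcam (11.3 and 12.3) were high, and the water channel Aqp2 was near the middle of all clusters (7.9 and 8.1). Of the leukocyte genes, Ptprc (6.0 and 6.0) and Adgre1 (5.1 and 5.1) were low, and Cd68 (9.2 and 8.9) and Csf1r (8.8 and 9.7) were not. The median of all clusters was 7.23 to 7.33 on arrays of the AGN193109 experiment and 7.48 to 7.51 on those of the other.

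Cxcl10 was the one gene of the 34 that passed the test in any comparison, and it did so in the DEAB experiment when arrays of the same replicate number were paired. Its log2 levels were 12.27, 12.01 and 11.91 with DEAB and tRA, 11.72, 11.49 and 11.35 with DEAB, and 12.27, 11.94 and 11.89 with vehicle, in replicates 1, 2 and 3. Every DEAB array was below every vehicle array and below every array with DEAB and tRA, while the arrays with DEAB and tRA overlapped those with vehicle. Cxcl10 fell by 0.51 on the log2 scale with DEAB (0.701-fold, SE 0.04 with the pairing, adjusted p = 0.0035 in limma). With tRA added to DEAB it rose by 0.54 relative to DEAB alone (1.45-fold, SE 0.04, adjusted p = 0.00144), which left a difference of 0.03 from vehicle. Without the pairing the SE was 0.14 and neither call was made (adjusted p = 0.838 and 0.289). Both differences use the same DEAB arrays, so the fall and the rise are not separate evidence. The pairing mattered because replicate 1 was the highest in all 3 groups, so that the differences within pairs were far more alike than the levels, with -0.55, -0.44 and -0.55 for DEAB minus vehicle. Both calls held with any 1 of the 9 arrays left out (adjusted p of at most 0.046 and 0.0156), and neither held with all arrays of a replicate number left out (adjusted p of 0.145 to 0.218 and of 0.0616 to 0.0803). Each array holds RNA of a whole dish, so fewer cells with Cxcl10 transcripts and fewer transcripts per cell cannot be told apart.

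In the AGN193109 experiment Cxcl10 had log2 levels of 12.21, 12.88 and 12.13 with AGN193109 and tRA, 11.64, 12.66 and 11.86 with AGN193109, and 11.99, 13.20 and 12.44 with vehicle. The groups overlapped because replicate 2 stood well above the other two in each of them, yet AGN193109 was below vehicle in every pair, by -0.34, -0.54 and -0.58. The mean difference of -0.49 did not pass the test (SE 0.35, adjusted p = 1, and with the pairing SE 0.11, adjusted p = 0.162). AGN193109 with tRA minus AGN193109 was 0.35 (0.57, 0.22 and 0.27 by pair, adjusted p = 0.676 with the pairing), so that 72.0% of the distance from vehicle was made up, and in replicate 1 the level with tRA passed that of vehicle. The effect of AGN193109 minus that of DEAB was 0.02 (SE 0.40, and 0.12 with the pairing), and the same difference for the addition of tRA, at its 2 doses, was -0.19 (SE 0.40, and 0.12 with the pairing). Neither passed the test (adjusted p = 1 each).

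**Figure D1:**
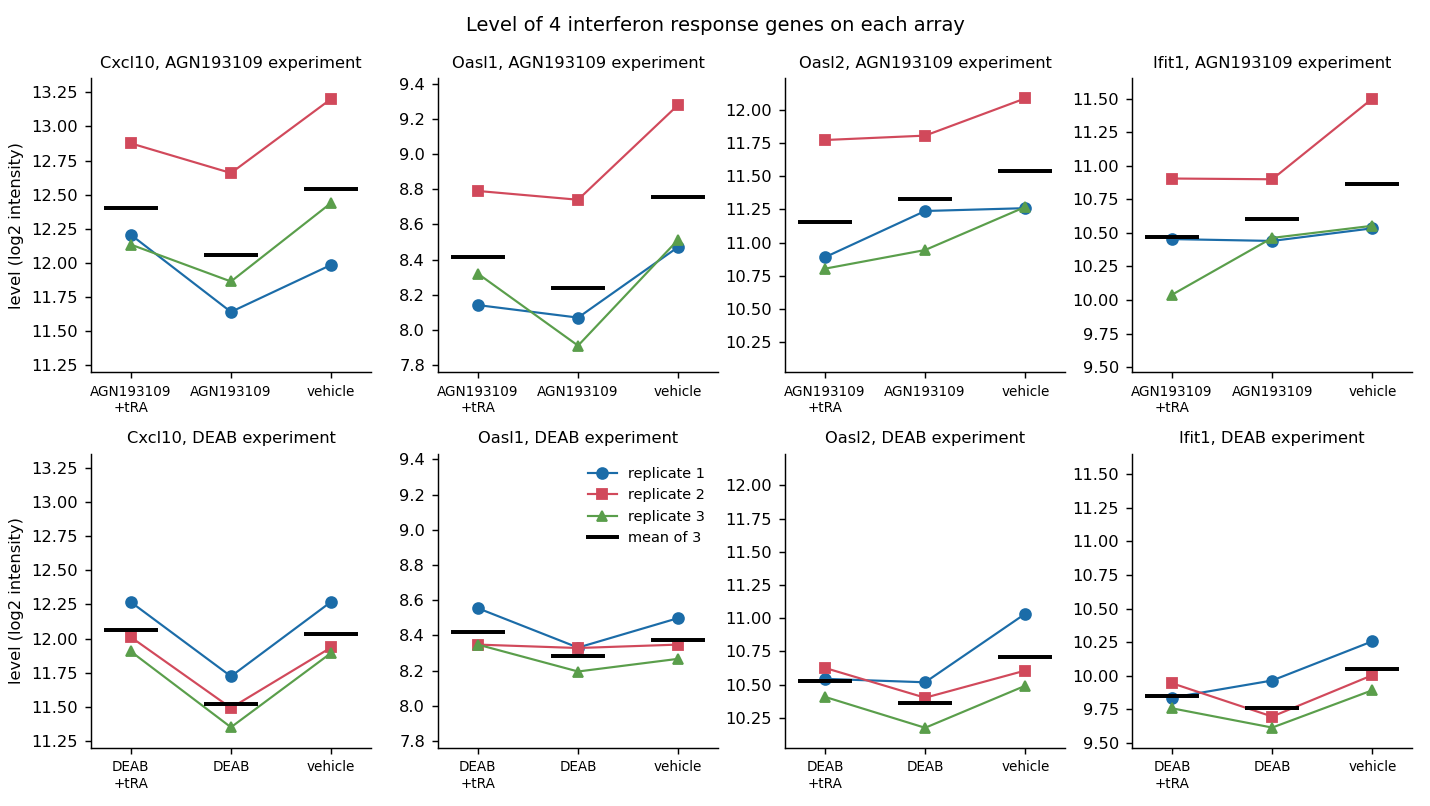
Level (log2 intensity) of Cxcl10, Oasl1, Oasl2 and Ifit1 on each array, AGN193109 experiment above and DEAB experiment below, with lines that join arrays of one replicate number and black bars at the mean of 3 arrays. In the DEAB experiment Cxcl10 lies between 11.35 and 11.72 with DEAB and at or above 11.89 in the other groups, and in the AGN193109 experiment the replicate 2 arrays lie above the rest for all 4 genes.

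Over all 34 genes, the inhibitors left most members slightly lower than vehicle, in pairs that were not all alike. With AGN193109, 24 of 34 were below vehicle, with a median log2 difference of -0.04 and a range of -0.51 (Oasl1) to 0.14 (Ddx58), beside a median of 0.02 over all clusters, of which 43.2% were below 0. With DEAB, 29 of 34 were below vehicle, with a median of -0.10 and a range of -0.51 (Cxcl10) to 0.08 (Mx1), beside a median of 0.00 over all clusters, of which 50.1% were below 0. By pair, the median over the 34 genes was -0.01, -0.22 and 0.00 for AGN193109 minus vehicle, and -0.21, -0.08 and -0.05 for DEAB minus vehicle. The low median with AGN193109 thus lay in replicate 2, and that with DEAB was lowest in replicate 1. Without the pairing no member was called for AGN193109, where limma called 0.0683% of all clusters, or for DEAB, where it called 0.0342%. An unadjusted p under 0.05 was reached by 1 member for AGN193109 (3.30% of all clusters) and by 3 for DEAB (4.05%).

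With the pairing, no member was called for AGN193109 (0.457% of all clusters) and 1, Cxcl10, for DEAB (0.303%). At an unadjusted p under 0.05 with the pairing, 9 members (26.5%) were lower with AGN193109, against 2.84% of all clusters, and 8 (23.5%) with DEAB, against 4.17%. AGN193109 was below vehicle in all 3 pairs for 10 members (29.4%), against 9.09% of all clusters, and DEAB was below vehicle in all 3 pairs for 17 (50%), against 13.9%. These members share arrays and, as shown further on, vary together, so the counts describe the list and are no test of it.

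**Figure D2:**
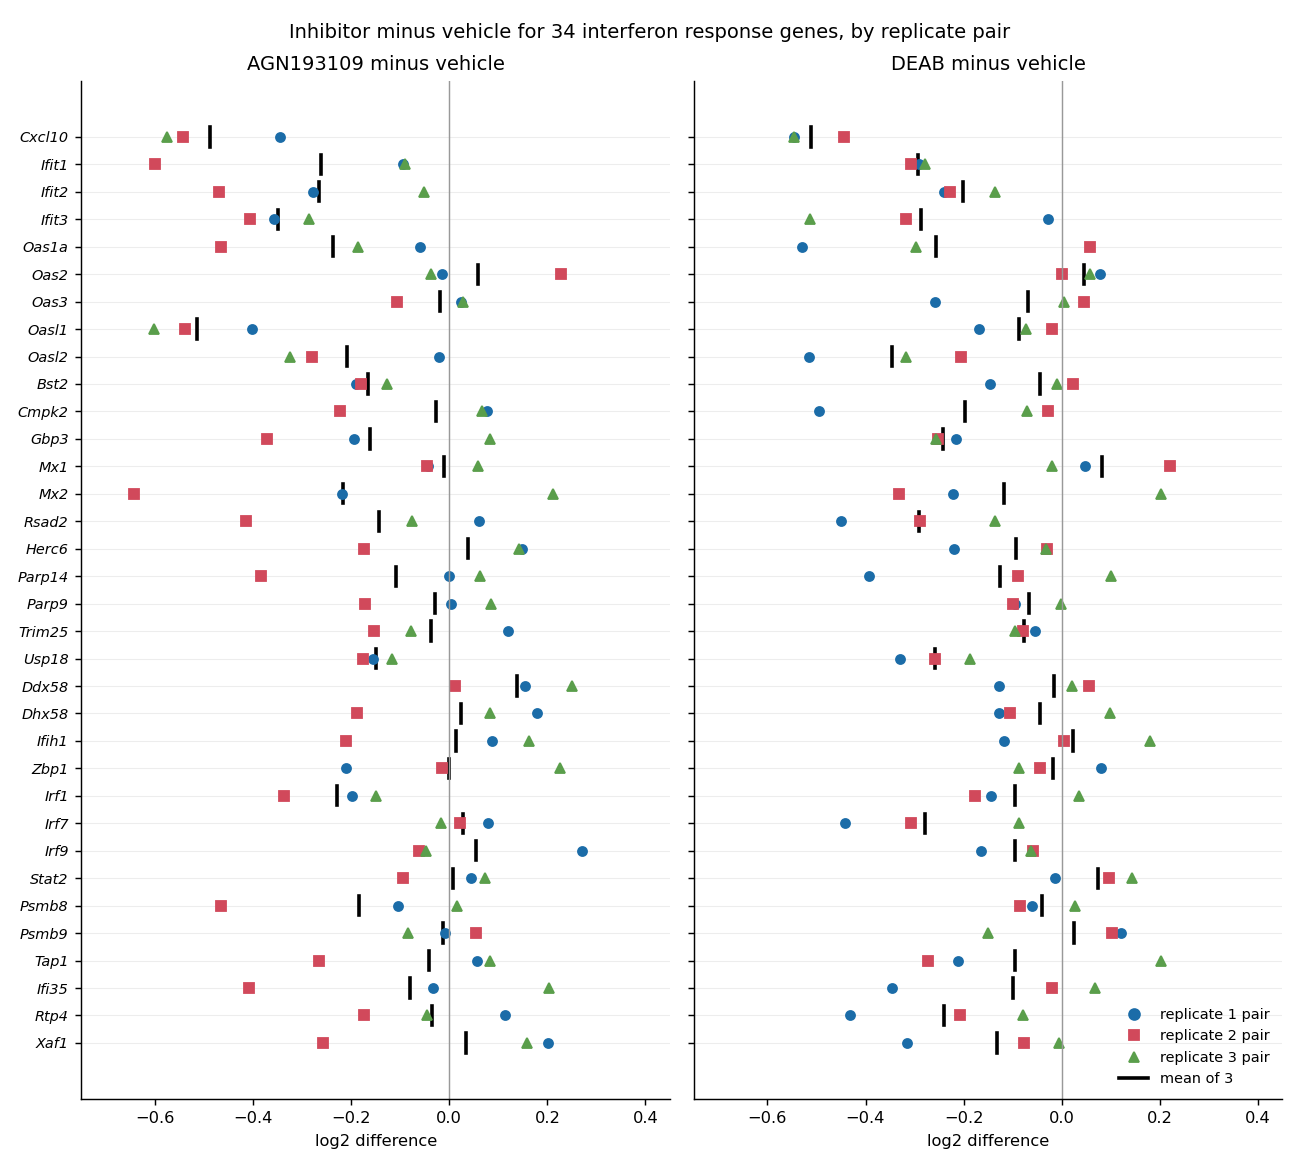
Inhibitor minus vehicle (log2 difference) in each replicate pair for the 34 genes, with AGN193109 on the left and DEAB on the right, colored marks for the pairs and black bars at their mean. Cxcl10 lies below -0.3 in every pair of both experiments, and Oasl1 does so only with AGN193109.

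Of the role groups with more than 1 gene, the genes that bind or degrade RNA had the lowest median with either inhibitor, which was not tested against the other groups. Their 8 members had a median log2 difference of -0.25 with AGN193109 and of -0.23 with DEAB, and 7 of the 8 were below vehicle in each experiment. None passed the test, and 2, Ifit1 and Oasl2, had an unadjusted p under 0.05 with DEAB, against 4.05% of all clusters. The medians were -0.15 and -0.16 for the 6 GTPases and other antiviral effectors, 0.02 and -0.10 for the 4 transcription factors, and 0.02 and -0.02 for the 4 sensors.

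Oasl1, an oligoadenylate synthetase-like protein that in the mouse represses translation of Irf7, had the largest difference with AGN193109. Its log2 levels were 8.14, 8.79 and 8.32 with AGN193109 and tRA, 8.07, 8.74 and 7.91 with AGN193109, and 8.47, 9.28 and 8.51 with vehicle. AGN193109 minus vehicle was -0.40, -0.54 and -0.60 by pair, with a mean of -0.51 that did not pass the test (SE 0.27, adjusted p = 1, and adjusted p = 0.0636 with the pairing). AGN193109 and vehicle overlapped only through replicate 2 of AGN193109, and tRA made up 34.4% of the distance. With DEAB the levels were 8.55, 8.35 and 8.35 with tRA, 8.33, 8.33 and 8.19 without, and 8.50, 8.35 and 8.27 with vehicle, a difference from vehicle of -0.09. The effect of AGN193109 minus that of DEAB was -0.43 (SE 0.31, adjusted p = 1, and adjusted p = 0.595 with the pairing), so that the 2 inhibitors were not shown to differ for Oasl1.

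Oasl2, a second synthetase-like protein, was lower in both experiments. With AGN193109 and tRA it had log2 levels of 10.89, 11.77 and 10.80, with AGN193109 11.24, 11.80 and 10.94, and with vehicle 11.26, 12.09 and 11.27. In the mean tRA made up none of the distance, and AGN193109 with tRA lay further below vehicle (-0.38) than AGN193109 alone (-0.21). In the DEAB experiment it had 10.54, 10.63 and 10.41 with DEAB and tRA, 10.52, 10.40 and 10.18 with DEAB, and 11.03, 10.61 and 10.49 with vehicle. DEAB minus vehicle was -0.35 (SE 0.14, unadjusted p = 0.0385, adjusted p = 1, and adjusted p = 0.334 with the pairing), and tRA made up 46.6% of it.

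Ifit1, which binds RNA that lacks the cap marks of host transcripts, was below vehicle by nearly equal amounts in the 3 DEAB pairs and mainly in replicate 2 with AGN193109. Its levels in the DEAB experiment were 9.84, 9.94 and 9.76 with DEAB and tRA, 9.96, 9.70 and 9.61 with DEAB, and 10.26, 10.00 and 9.89 with vehicle. DEAB minus vehicle was -0.29, -0.31 and -0.28 by pair (unadjusted p = 0.0312, adjusted p = 1, and adjusted p = 0.333 with the pairing), and tRA made up 30.1%. In the AGN193109 experiment the levels were 10.45, 10.90 and 10.04 with AGN193109 and tRA, 10.44, 10.90 and 10.46 with AGN193109, and 10.53, 11.50 and 10.55 with vehicle. The mean of -0.26 there rested on replicate 2, where the pair differed by -0.60, against -0.09 in each of the others.

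Its neighbours on chromosome 19, Ifit2 and Ifit3, which form complexes with Ifit1 in human cells, did not follow Ifit1 from array to array. Ifit3 had log2 levels of 10.47, 9.91 and 10.27 with AGN193109 and tRA, 9.99, 9.97 and 10.59 with AGN193109, and 10.34, 10.37 and 10.87 with vehicle. AGN193109 was below vehicle in every pair, with a mean of -0.35 (SE 0.21, adjusted p = 1, and adjusted p = 0.693 with the pairing), and tRA added 0.03. In the other experiment Ifit3 had 9.53, 10.85 and 10.94 with DEAB and tRA, 9.92, 10.75 and 10.80 with DEAB, and 9.95, 11.06 and 11.31 with vehicle. Replicate 1 was about a log2 unit below the others in every group, which is larger than any difference between groups, and DEAB minus vehicle averaged -0.29. For DEAB with tRA minus vehicle, the pairs gave -0.42, -0.21 and -0.38 (adjusted p = 0.39 with the pairing). Without the replicate 1 array of DEAB with tRA the mean of -0.34 became 0.12, a value that still held the low replicate 1 array of vehicle.

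Ifit2 had log2 levels of 10.74, 10.55 and 10.70 with AGN193109 and tRA, 10.57, 10.43 and 10.94 with AGN193109, and 10.85, 10.90 and 10.99 with vehicle. The arrays with AGN193109 and tRA were all below those with vehicle, and AGN193109 alone overlapped vehicle through replicate 3. On the other arrays Ifit2 had 10.28, 10.86 and 10.77 with DEAB and tRA, 10.26, 10.70 and 10.70 with DEAB, and 10.50, 10.92 and 10.84 with vehicle. DEAB minus vehicle was -0.24, -0.23 and -0.14 by pair, with adjusted p = 0.246 with the pairing.

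The remaining synthetases showed smaller or uneven differences. Oas3, which makes the oligoadenylates that switch on RNase L, had log2 levels of 8.92, 9.79 and 8.83 with AGN193109 and tRA, 9.22, 9.89 and 9.12 with AGN193109, and 9.20, 10.00 and 9.09 with vehicle. AGN193109 alone was close to vehicle in every pair (mean -0.02), whereas adding tRA gave -0.23 relative to AGN193109, lower in all 3 pairs (adjusted p = 0.649 with the pairing). With DEAB the levels were 7.71, 7.85 and 8.03 with tRA, 8.18, 7.99 and 7.99 without, and 8.44, 7.95 and 7.98 with vehicle, and DEAB minus vehicle was -0.26, 0.05 and 0.00 by pair. Oas1a had a difference from vehicle of -0.24 with AGN193109 and of -0.26 with DEAB. With DEAB the pairs gave -0.53, 0.06 and -0.30. A brighter cluster that Oas1a shares with Oas1g (mean log2 levels of 9.51 and 9.11) had smaller differences, -0.11 and -0.17. Read from that cluster, Oas1a would be within the limit of 0.2 used below in both experiments. Oas2 was near vehicle with either inhibitor (0.06 and 0.05).

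Among the other antiviral effectors, Rsad2 (viperin), an enzyme that makes a chain-terminating nucleotide, had log2 levels of 9.07, 9.04 and 8.70 with DEAB and tRA, 9.29, 8.90 and 8.73 with DEAB, and 9.74, 9.19 and 8.87 with vehicle. DEAB minus vehicle was -0.45, -0.29 and -0.14 by pair and DEAB with tRA minus vehicle averaged -0.33, so that tRA made up none of it in the mean (adjusted p = 0.52 and 0.379 with the pairing). In the AGN193109 experiment its levels were 9.98, 10.81 and 10.23 with AGN193109 and tRA, 10.12, 10.83 and 10.40 with AGN193109, and 10.06, 11.24 and 10.48 with vehicle, and the 3 pairs of AGN193109 and vehicle disagreed in sign. Cmpk2, a nucleotide kinase whose gene lies beside Rsad2, was just short of the limit of 0.2 used below, at -0.20 with DEAB, where the pairs gave -0.49, -0.03 and -0.07. Gbp3, a guanylate-binding GTPase, had -0.22, -0.25 and -0.26 by pair with DEAB.

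Bst2 (tetherin), which holds budding virus at the cell surface, had small and even differences in the AGN193109 experiment. Its log2 levels were 9.77, 10.10 and 9.67 with AGN193109 and tRA, 9.66, 10.00 and 9.57 with AGN193109, and 9.85, 10.18 and 9.70 with vehicle. AGN193109 minus vehicle was -0.19, -0.18 and -0.13 by pair, and AGN193109 with tRA minus AGN193109 was 0.12, 0.11 and 0.10 (adjusted p = 0.578 and 0.999 with the pairing). The levels in the DEAB experiment were 9.70, 9.69 and 9.70 with DEAB and tRA, 9.76, 9.68 and 9.55 with DEAB, and 9.91, 9.66 and 9.56 with vehicle, and DEAB minus vehicle was -0.15, 0.02 and -0.01 by pair.

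Of the genes for ubiquitin-like and ADP-ribose marks, Usp18 had the largest difference with DEAB. It had log2 levels of 11.26, 11.40 and 11.23 with DEAB and tRA, 11.47, 11.23 and 11.05 with DEAB, and 11.81, 11.49 and 11.23 with vehicle. DEAB minus vehicle was -0.33, -0.26 and -0.19 by pair, with adjusted p = 0.57 with the pairing, and tRA made up 18.4%. With AGN193109 and tRA it had 11.21, 11.74 and 11.08, with AGN193109 11.27, 11.83 and 11.25, and with vehicle 11.42, 12.01 and 11.36. The pairs of AGN193109 and vehicle differed by -0.16, -0.17 and -0.12. Herc6, the mouse ligase for ISG15, Trim25, which ubiquitinates the sensor Ddx58, and the ADP-ribosyltransferases Parp9 and Parp14 lay between -0.13 and 0.04 with either inhibitor.

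For the antigen processing genes, the immunoproteasome subunits Psmb8 and Psmb9 and the peptide transporter Tap1, the median difference was -0.04 with either inhibitor, and none passed the test. Of the remaining genes, Rtp4 had -0.24 with DEAB (-0.43, -0.21 and -0.08 by pair). Xaf1 had 0.03 with AGN193109 (0.20, -0.26 and 0.16 by pair) and -0.13 with DEAB (-0.32, -0.08 and -0.01). Ifi35 had -0.08 with AGN193109 (-0.03, -0.41 and 0.20) and -0.10 with DEAB (-0.35, -0.02 and 0.07). These differences were uneven, with the lowest pair in replicate 2 for AGN193109 and in replicate 1 for DEAB.

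Among the transcription factors, Irf1, which GAS elements drive, was the one gene of the 34 whose AGN193109 and vehicle arrays did not overlap. Of all 23410 clusters, 553 were lower and 857 higher with AGN193109 without overlap, so this count does not set the list apart. The log2 levels of Irf1 were 9.15, 9.21 and 9.03 with AGN193109 and tRA and 9.20, 9.18 and 9.19 with AGN193109. With vehicle they were 9.40, 9.51 and 9.34, without overlap with either other group. AGN193109 minus vehicle was -0.20, -0.34 and -0.15 by pair, with a mean of -0.23 (unadjusted p = 0.0138, adjusted p = 1, and adjusted p = 0.414 with the pairing). For AGN193109 with tRA minus vehicle the mean was -0.29 (unadjusted p = 0.004, and adjusted p = 0.511 with the pairing). Neither difference passed the test. A second, dimmer Irf1 cluster (7.16 in the mean) went the other way, with 0.10 and 0.16, so the cluster decides the direction. Irf7, a factor induced by interferon that drives interferon alpha genes, had levels of 8.54, 8.94 and 8.79 with DEAB and tRA, 9.00, 8.86 and 8.73 with DEAB, and 9.44, 9.16 and 8.82 with vehicle. DEAB with tRA minus vehicle was -0.38 for Irf7 (unadjusted p = 0.0392, adjusted p = 0.819), and the pair of replicate 1 gave -0.90, against -0.22 and -0.03.

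Each gene was then placed by 3 limits that carry no test. A mean at least 0.2 below vehicle counted as lower, a share of at least 0.5 of that distance made up with tRA counted as returned, and a gene counted as resting on one replicate where leaving out one pair brought the difference below a share of 0.5 of its size. In the AGN193109 experiment Cxcl10 alone counted as returned. Ifit2, Ifit3, Irf1, Oas1a, Oasl1 and Oasl2 stayed low, Ifit1 and Mx2 rested on replicate 2, and 25 genes were within the limit. In the DEAB experiment Cxcl10 again was the one gene that returned, with 105.5% of the distance. Ifit1, Ifit2, Ifit3, Irf7, Oasl2, Rsad2, Usp18, Gbp3 and Rtp4 stayed low, Oas1a rested on replicate 1, and 23 genes were within the limit. No gene was higher than vehicle by 0.2 with either inhibitor alone. Apart from Cxcl10 in the DEAB experiment, none of these genes passed the test, so the groups order the means and do not show that a gene was or was not restored. The inhibitor arrays enter both the fall and the return with opposite sign, so the 2 differences are not separate evidence.

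Adding tRA to AGN193109 did not move the list as a whole toward vehicle. AGN193109 with tRA was below AGN193109 for 25 of the 34 genes (median -0.06, from -0.23 for Cmpk2 to 0.35 for Cxcl10), beside a median of -0.01 over all clusters, of which 55.8% were below 0. By pair, the median over the 34 genes was -0.00, 0.01 and -0.22, so that it lay in replicate 3. No member was called (0.0214% of all clusters, and 0.0812% with the pairing), and 1, Stat2, had an unadjusted p under 0.05 (2.14% of all clusters). All 3 pairs were lower for 11 members (32.4%, against 13.7% of all clusters) and higher for 3 members (8.82%, against 6.99%), which were Cxcl10, Oasl1 and Bst2. With the pairing 2 members (5.88%) were lower at an unadjusted p under 0.05, against 3.62% of all clusters.

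With DEAB, 21 of the 34 genes were lower and the rest higher when tRA was added (median -0.04, from -0.20 for Stat2 to 0.54 for Cxcl10, beside a median of 0.01 over all clusters, of which 46.6% were below 0). The median by pair was -0.13, 0.01 and 0.06. Without the pairing no member was called (0.325% of all clusters), and 2 members had an unadjusted p under 0.05 (6.39%). With the pairing 1 member, Cxcl10, was called (1.50%), and 3 members (8.82%) were lower at an unadjusted p under 0.05, against 6.22%. All 3 pairs were lower for 4 members (11.8%, against 16.2%) and higher for 4 (11.8%, against 15.5%), which were Cxcl10, Ifit2, Oasl1 and Oasl2. The shares for all 3 pairs lay below those of all clusters.

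Stat2, the STAT that pairs with Irf9, was lower with tRA in both experiments and near vehicle with either inhibitor alone. Its log2 levels were 10.33, 10.50 and 10.29 with AGN193109 and tRA, 10.60, 10.59 and 10.60 with AGN193109, and 10.55, 10.69 and 10.53 with vehicle. For the second inhibitor they were 10.25, 10.35 and 10.33 with DEAB and tRA, 10.50, 10.60 and 10.43 with DEAB, and 10.51, 10.50 and 10.29 with vehicle. In both experiments the arrays with tRA were all below those with the inhibitor alone, by -0.22 (unadjusted p = 0.0202, adjusted p = 1, and 0.685 with the pairing) and -0.20 (unadjusted p = 0.0205, adjusted p = 0.675, and 0.227 with the pairing). Neither passed the test. Of the RNA sensors, Ddx58 (RIG-I) had levels of 11.13, 11.14 and 10.99 with DEAB and tRA, 11.33, 11.31 and 11.17 with DEAB, and 11.46, 11.26 and 11.15 with vehicle, and the arrays with tRA were below all others. Ifih1 (MDA5) likewise had -0.17 with tRA relative to DEAB and no overlap. The median over the 4 sensors was -0.14 there and -0.15 when tRA was added to AGN193109. Without overlap, 1 of the 34 genes was lower and 0 higher with tRA added to AGN193109, against 671 and 300 of 23410 clusters. With tRA added to DEAB, 3 were lower and 2 higher, against 1062 and 1093 clusters.

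Relative to vehicle, most of the list was lower also with tRA added. AGN193109 with tRA was below vehicle for 32 of the 34 genes (median -0.16, from -0.40 for Ifit1 to 0.03 for Irf9), beside a median of 0.00 over all clusters, of which 49.0% were below 0. DEAB with tRA was below vehicle for 28 (median -0.15, from -0.38 for Irf7 to 0.12 for Psmb9), beside a median of 0.00 over all clusters, of which 49.0% were below 0. By pair, the medians over the 34 genes were -0.06, -0.26 and -0.24 for AGN193109 with tRA and -0.33, -0.09 and 0.00 for DEAB with tRA. Without the pairing limma called no member and 0% of all clusters in either comparison, and 2 members each had an unadjusted p under 0.05 (1.79% of all clusters for AGN193109 with tRA and 5.99% for DEAB with tRA). With the pairing no member was called in either (0.00427% and 0.0214% of all clusters).

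At an unadjusted p under 0.05 with the pairing, 11 members (32.4%) were lower with AGN193109 and tRA, against 3.06% of all clusters, and 10 (29.4%) with DEAB and tRA, against 5.20%. All 3 pairs were lower for 16 members (47.1%, against 12.9% of all clusters) and for 13 (38.2%, against 14.6%). The 2 comparisons with vehicle in each experiment share the vehicle arrays, so they are not separate evidence of a low level.

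**Figure D3:**
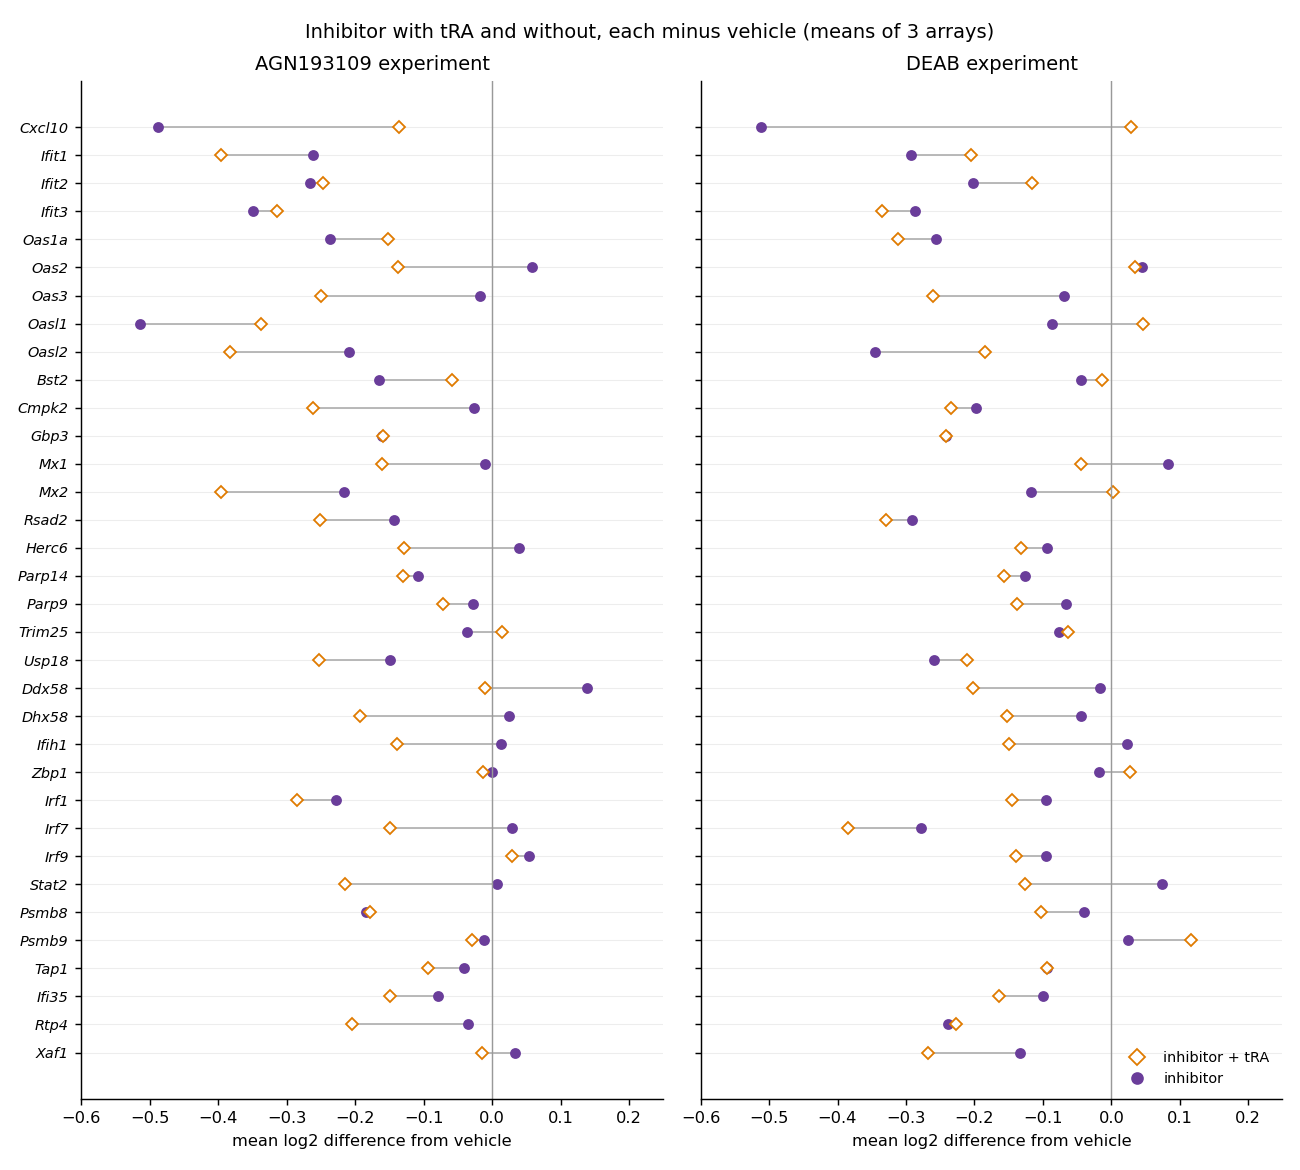
Mean log2 difference from vehicle of the inhibitor with tRA (open diamonds) and of the inhibitor alone (filled circles) for the 34 genes, in each experiment. The diamond of Cxcl10 lies to the right of its circle in both experiments, at -0.14 and 0.03, and 32 and 28 of the diamonds are below 0.

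No gene of the list was shown to respond differently to the 2 inhibitors. The effect of AGN193109 minus that of DEAB had a median of 0.03 over the list, and without the pairing limma called no member and 0% of all clusters. No member had an unadjusted p under 0.05, against 2.30% of all clusters. With the pairing no member was called either (0.00427% of all clusters), and 1 member, Oasl1 (-0.43, unadjusted p = 0.00113), was under 0.05, against 5.57%. For the addition of tRA under AGN193109 minus that under DEAB, at their different doses, no member and 0% of all clusters were called without the pairing, and no member had an unadjusted p under 0.05, against 1.40%. With the pairing no member and 0% of all clusters were called, and 1 member, Oasl2 (-0.33, unadjusted p = 0.0211, adjusted p = 0.999), was under 0.05, against 3.45%.

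The level of these genes followed the replicate number more than the treatment in the AGN193109 experiment. Replicate 2 was the highest in all 3 groups for 25 of the 34 genes (73.5%), against 7.41% of all clusters. By the median over the list, replicate number took 76.3% of the sum of squares and group 9.84%, against 37.0% and 16.2% over all clusters. The share of replicate number was the larger for 31 of the 34 (91.2%), against 70.5% of all clusters. Replicate 2 stood above the mean of the other two by 0.42 in the median, by 1.12 for Mx2, 0.87 for Cxcl10, 0.83 for Oas3 and 0.82 for Oasl2. Ifit2 and Ifit3 were exceptions, with -0.17 and -0.34.

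The other interferon-stimulated genes shared this pattern in part, with 22 of 48 highest in replicate 2 of all 3 groups, and so did 3 of 5 other interferon-induced chemokines, 4 of 10 antigen presentation genes and 3 of 14 nucleic acid sensing genes, against the same 7.41% of all clusters. It was seen for 0 of 16 interferon ligands, 1 of 12 receptors, kinases and STATs, 0 of 9 epithelial markers and 1 of 9 leukocyte markers. The part of this replicate in the differences between groups was measured by the pairing and by leaving out arrays, and what set it apart was not tested. In the DEAB experiment replicate 1 was the highest in all 3 groups for 5 of 34 (14.7%), against 12.7% of all clusters, and the shares were 38.8% for replicate number and 27.4% for group, against 33.1% and 22.5%. There Ifit3 (-1.15) and Ifit2 (-0.45) were the lowest in replicate 1 relative to the other two.

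**Figure D4:**
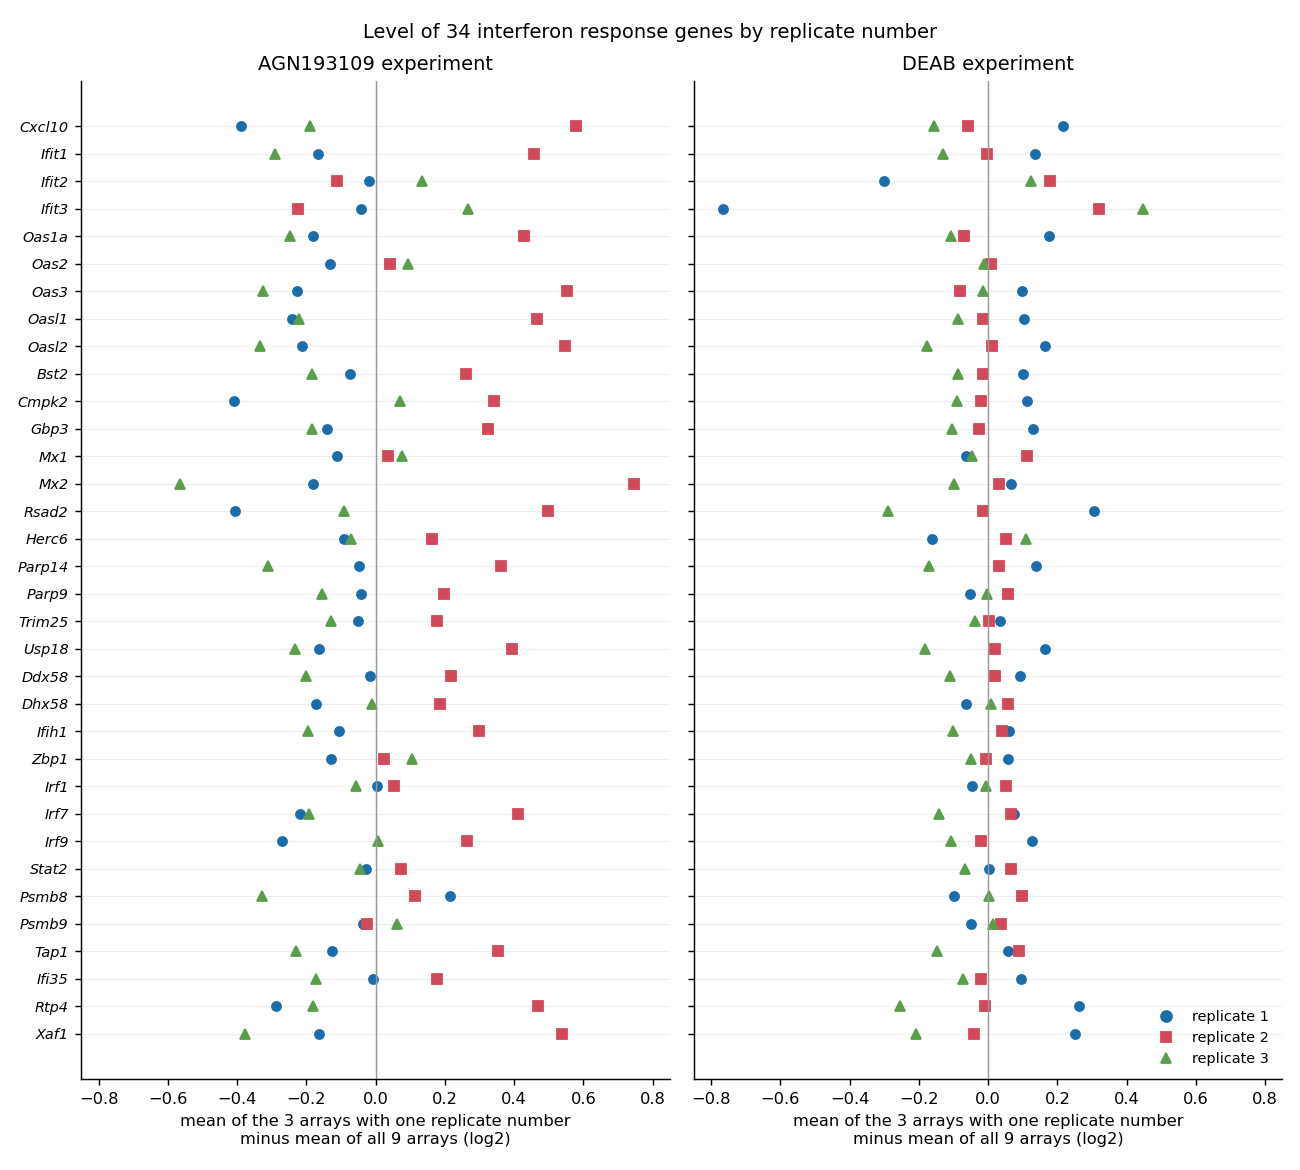
Mean level of the 3 arrays with one replicate number minus the mean of all 9 arrays (log2) for the 34 genes, in each experiment. Replicate 2 (squares) lies to the right of the other two for most genes of the AGN193109 experiment, and replicate 1 (circles) of Ifit2 and Ifit3 lies far to the left in the DEAB experiment.

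The rest of the pathway was described by lists of its ligands, receptors, sensing genes and further targets. Of 16 interferon ligands measured, none was called in any comparison, with median log2 differences of 0.02 with AGN193109 and 0.05 with DEAB. Of the 12 receptors, kinases and STATs, 1 was called, in a comparison where limma called 1.50% of all clusters with the pairing. Ifngr1, the ligand-binding subunit of the interferon gamma receptor, rose by 0.36 when tRA was added to DEAB (adjusted p = 0.0215 with the pairing, and 0.379 without). Its log2 levels were 11.43, 11.46 and 11.71 with DEAB and tRA, 11.01, 11.22 and 11.29 with DEAB, and 11.44, 11.43 and 11.62 with vehicle, so that the DEAB arrays lay below all others. With AGN193109 it had 10.76, 10.64 and 10.92 with tRA, 10.62, 10.47 and 10.82 without, and 10.83, 10.88 and 11.30 with vehicle. The differences from vehicle without tRA were -0.33 with DEAB and -0.37 with AGN193109 (adjusted p = 0.0862 and 0.135 with the pairing).

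Of 48 other interferon-stimulated genes measured, 41 were below vehicle with DEAB (median -0.05) and 25 with AGN193109 (median -0.00), beside 50.1% and 43.2% of all clusters. With or without the pairing, 3 were called in some comparison. Of all clusters limma called 1.50% with the pairing for DEAB with tRA against DEAB, 0.457% for AGN193109 against vehicle and 0.303% for DEAB against vehicle. Isg20, an exonuclease that degrades RNA, fell by 0.34 when tRA was added to DEAB, with 11.30, 11.32 and 11.24 against 11.63, 11.65 and 11.59 with DEAB alone (SE 0.05, adjusted p = 0.025, and 0.00652 with the pairing). This was the one call among all lists that did not need the pairing. Gbp9, a guanylate-binding GTPase, fell by 0.52 with AGN193109 (adjusted p = 0.0346 with the pairing, and 1 without), with pairs of -0.51, -0.54 and -0.52, and tRA added -0.00. Its levels were 8.62, 8.57 and 8.06 with AGN193109 and tRA, 8.47, 8.61 and 8.17 with AGN193109, and 8.98, 9.15 and 8.69 with vehicle. Ifi205, a DNA-binding protein of the HIN family, fell by 0.54 with DEAB and rose by 0.46 when tRA was added (adjusted p = 0.039 and 0.0279 with the pairing, and 1 and 0.873 without). These differences of Ifi205 also share the DEAB arrays.

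Of 5 other interferon-induced chemokines, 3 were below vehicle with AGN193109 and 4 with DEAB, and none passed the test. Cxcl11, which shares the receptor Cxcr3 with Cxcl10, had log2 levels of 7.79, 8.39 and 7.87 with AGN193109 and tRA, 7.57, 7.87 and 7.74 with AGN193109, and 7.90, 8.22 and 8.06 with vehicle. Its levels in the DEAB experiment were 7.43, 7.09 and 7.16 with DEAB and tRA, 7.04, 7.09 and 6.74 with DEAB, and 7.62, 7.21 and 6.84 with vehicle. The differences from vehicle without tRA were -0.33 and -0.26. Ccl5, which attracts T cells and monocytes, had 11.35, 10.91 and 10.49 with DEAB and tRA, 11.14, 10.82 and 10.35 with DEAB, and 11.53, 11.07 and 10.57 with vehicle, a difference from vehicle of -0.29 (adjusted p = 0.0873 with the pairing).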

How the data were processed

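Expression in mIMCD-3 cells was profiled on 18 Affymetrix arrays of the type Mouse Gene 1.0 ST. The authors normalized them with the Robust Multichip Average in Affymetrix Expression Console (version not given in the sources used here) and deposited log2 values, which were used as they are. Of 35556 transcript clusters, 23410 carry a symbol in the array annotation (21789 of them 1 symbol) and were tested. Arrays of an experiment correlated at 0.985 or more and 0.993 or more. The short names of the vehicle arrays have a different form in each experiment and gave their assignment. Where labels spell AGN193109 as AGN193110 or AGN193099, the titles were followed.

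Groups were compared with limma 3.58.1 in R 4.3.3, as group means in 1 fit per experiment of 9 arrays, with Benjamini-Hochberg adjustment over all tested clusters and a threshold of 0.05. A second fit paired the arrays, with the replicate number as a block. The numbers mark independent experiments, and residual correlations were 0.198 to 0.645 (AGN193109) and 0.179 to 0.614 (DEAB) between arrays of one number, against -0.575 to 0.205 and -0.511 to 0.312 between numbers. Inhibitors were compared by an interaction over 18 arrays. Without the pairing, an exact two-sided permutation test of 3 against 3 arrays cannot go below p = 0.1. Within 3 pairs the lowest p of such a test is higher still. This leaves the model as the basis of the p-values, also for the paired calls, and makes the array number the limit of precision.

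The members and lists were chosen with earlier results of these data known. Array values are given for members called in either fit. They are also given for the 5 largest inhibitor differences per experiment among members above the 30th percentile of level. Cxcl10, Oasl1, Oas3, Bst2 and Usp18, which the study names, were included, and Irf1, Irf7, Stat2, Ddx58, Cxcl11 and Ccl5 were chosen after their values were seen. Of genes called in the other lists, Ifngr1 and Gbp9 have array values, Isg20 has those of DEAB with and without tRA, and Ifi205 has none. Of the 9 epithelial markers, 1 was called lower with tRA added to DEAB, with the pairing (1.50% of all clusters), and is not described. A gene with several clusters was read from the brightest of those that carry a single symbol. Alternatives were the block, other normalizations and filters, other fits and each array left out. Scripts were tested on simulated data. Plots came from matplotlib 3.10.9 (Python 3.11.15).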

Additional observations from a re-analysis of the deposited data

How the results depend on the processing

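The pairing decided the calls of the list. Without it no member was called in any of the 6 comparisons, and with the replicate block 1 member, Cxcl10, was called for DEAB against vehicle (-0.51) and 1, again Cxcl10, for DEAB with tRA against DEAB (0.54). The block changed no other call of a member. With the pairing, in an alternative chosen after seeing the data, Cxcl10 with DEAB lay between -0.55 and -0.49 when arrays or replicate numbers were left out, and with tRA added between 0.53 and 0.56. Every array left out kept both calls, and every replicate number left out ended them. The other values given with alternatives kept their direction and their side of the threshold, except that Ifit3 for DEAB with tRA minus vehicle became 0.12 without the replicate 1 array of DEAB with tRA (from -0.75 to 0.12 over all arrays left out), while within the pairs it was -0.42, -0.21 and -0.38. The descriptive groups moved with their limits. At a difference of 0.1, 2 genes counted as returned and 6 as resting on one replicate with AGN193109, and 5 as resting on one replicate with DEAB. At a difference of 0.3, 2 genes stayed low with AGN193109 and 1 with DEAB, and 0 rested on one replicate in either. At a return of 0.75, 0 genes returned with AGN193109. Averaged over its clusters, Irf1 had levels of 8.20 and 8.66. With 3 arrays a group, the SE of Cxcl10 without the pairing was 0.35 in the AGN193109 experiment and 0.14 in the other, which limits the size of a difference that could be called.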
